A study of Onthophagus taurus with 15 samples.

Results

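Gene expression in head horns and legs of Onthophagus taurus, a dung beetle with horned males, was compared in pupae of large males through their ratios to dorsal abdominal epithelium. The comparison took, for each of the letters A to E in the array titles, the ratio of a clone in head horn minus its ratio in legs. It covered every clone with such a difference in at least 4 letters, which were 3589 of the 3840 clones on the array. Of these, 3261 had a difference in all 5 letters and 328 in 4. Among the 251 clones left out, 166 had a difference in 3 letters. No measured value chose the clones.

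Head horns of Onthophagus are rigid outgrowths of the head that males use in fights over access to females. Large males carry long horns, while small males and females have short ones or none. Legs are jointed limbs whose pupal tissue holds epidermis, muscle, nerve and tracheae. A horn grows from head epidermis and has no joints and no muscles that move parts of it. Horns and legs both grow as projections of the body surface, and the limb patterning gene Distal-less is known to act in both in this genus. Abdominal epithelium makes no such projection.

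All tissues came from animals of a laboratory colony, dissected within 24 h of pupation. Each RNA sample pooled tissue of 4 pupae, and the appendage and abdomen hybridised together were taken from one such pool of animals. Amplification by in vitro transcription preceded labelling. Each group held 5 arrays, with head horn or legs in Cy3 and abdomen in Cy5 for A, C and E, and with the dyes exchanged for B and D. Head horn and legs of a letter were therefore always in the same dye, and a bias of a clone towards one dye drops out of their difference. The titles give head horn and legs of a letter differently numbered abdomen samples. Any difference between these abdomen samples stays in the difference between the tissues.

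The deposited values were read as log2 ratios, a base that the sources used here do not state. A positive ratio most likely means a higher level in the appendage than in abdomen, because titles and design name the appendage first. The files do not settle this, and if it were the other way round, "higher in head horn" and "higher in legs" would change places throughout, and so would "above abdomen" and "below abdomen". The relative sign of the letters was checked on the differences, which hold no dye bias. Over clones, differences of letters from opposite dye layouts correlated at 0.34 to 0.39 (6 pairs). Those of letters from one layout correlated at 0.30 to 0.42 (4 pairs), so B and D ran the same way as A, C and E. Values left unturned for the dye exchange would have made the first set negative.

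The clones carry identifiers and no gene names, and 0 of 3840 identifiers were found in the gene table for this species. The dissected tissues could therefore not be checked against marker genes. Clones can come from the same transcript, so numbers of clones are not numbers of genes. Between 3511 and 3808 clones had a value on the arrays, with D the least complete letter in head horn (295 empty) and in legs (329 empty). The signal behind each ratio is unknown, and the number of arrays limits the precision.

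Head horn and legs differed in 543 clones, 15.1% of those tested, and 50.6% of the calls were higher in head horn. A clone is called where its adjusted p is under 0.05 in limma, a linear model that borrows information on spread across clones, run on the same-letter differences. Levels were higher in head horn for 275 clones (7.66%) and higher in legs for 268 clones (7.47%). This split moved with the settings in both directions. The share higher in head horn was 59.2% with each array's median subtracted (303 against 209 clones). It was 69.1% without B, 62.4% without C and 64.7% without E. With the letter as a random replicate block it was 46.8%, and 47.5% on all 15 arrays with the letter as a fixed replicate block. Over clones with all 5 letters it was 49.4%. The median size of a called difference was 0.90 on the log2 scale (1.86-fold) for clones higher in head horn. It was 0.71 (1.63-fold) for clones higher in legs. In these bulk samples, fewer cells of a type and less RNA per cell cannot be told apart.

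Among larger differences, head horn was the higher tissue more often at 2-fold and less often at 4-fold, a change of balance that was not tested. At least 2-fold differences were called in 173 clones (4.82%), 115 higher in head horn and 58 higher in legs. At least 4-fold differences were called in 25 clones (0.697%), 11 higher in head horn and 14 higher in legs. The smallest called difference was 1.29-fold. All letters had the same sign in 540 of the 543 called clones, which the calls nearly require. The array values of head horn and legs did not overlap in 169 called clones (31.1%), against 5.8% of the clones tested. The median difference of all clones tested was -0.03.

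These counts rest on the pairing of the letters and on all 5 of them. Treated as unpaired groups of 5 arrays, head horn and legs differed in 60 clones, all of them among the 543 and in the same direction (limma, no replicate block). Without letter A 165 clones were called, without B 94, without C 85, without D 169 and without E 150. These fits took clones with a difference in at least 3 letters. Without B the calls were 65 higher in head horn and 29 higher in legs. Within one dye layout limma called 0 clones, on A, C and E as well as on B and D, where 766 of 3778 and 533 of 3329 clones had an unadjusted p under 0.05.

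**Figure D1:**
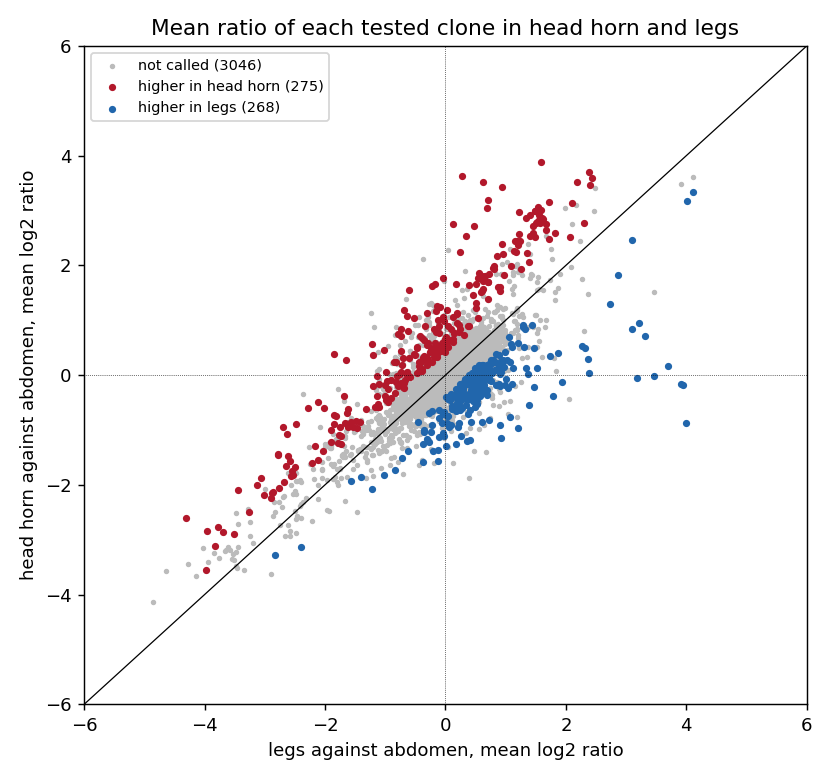
Mean log2 ratio against abdomen in legs (horizontal axis) and in head horn (vertical axis), 1 point per tested clone; the diagonal marks equal ratios. The 275 clones called higher in head horn (red) lie above the diagonal, a side that the calls nearly require, at low as well as high ratios. The most extreme of the 268 clones called higher in legs (blue) lie at a legs ratio of 3 to 4. Their head horn means run from -0.88 in OtP013-D04 to 0.95 in OtP007-A10.

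The clones furthest above head horn in legs were mostly not called against abdomen in head horn. All 14 clones called at least 4-fold higher in legs were above abdomen in legs, against 21.5% of the clones tested. Choosing clones by a legs ratio far above that of head horn favours this outcome. In 13 of the 14, head horn was not called against abdomen, against 64.5% of the clones tested. With a wide spread between letters, a clone that is not called may still lie away from the abdominal level. Their median SD over letters was 0.54 in legs and 1.04 in head horn, against 0.35 and 0.41 over all clones tested. The SD was larger in head horn in 10 of the 14, and in 60.8% of the clones tested. Thoracic horn, which the comparison did not use, lay nearer to head horn than to legs in 14 of 14.

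The largest difference belonged to OtP013-D04. On letters A to E its legs ratios were 3.25, 4.76, 3.55, 3.81 and 4.57, and its head horn ratios -0.95, 1.77, -3.65, -0.62 and -0.96. Head horn minus legs was -4.87 ± 0.58 (SE, 29.2-fold, n = 5 letters, adjusted p = 0.0103 by limma). The tissues did not overlap, and head horn was highest on B and lowest on C. OtP014-A08 had legs ratios of 3.22, 4.51, 3.73, 3.73 and 4.50, and head horn ratios of -0.56, 3.65, -3.04, -1.31 and 0.36. Here the tissues overlapped, because head horn on B exceeded legs on A and stood far above the other head horn arrays. Head horn minus legs was -4.12 ± 0.78 (SE, 17.4-fold, adjusted p = 0.0251 by limma). OtP013-D01 had legs ratios of 3.48, 4.52, 3.79, 3.61 and 4.13, and head horn ratios of 2.08, 1.27, -3.75, -0.03 and -0.40. Its difference was -4.07 ± 0.82 (SE, 16.8-fold, adjusted p = 0.029 by limma), from -1.40 on A to -7.53 on C.

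Among the clones higher in legs, OtL014-A09 and OtP001-H02 had steadier differences. OtL014-A09 stood at 2.91, 3.73, 2.62, 3.43 and 3.17 in legs and at 0.07, 1.03, -1.38, 0.25 and -0.21 in head horn. The difference was -3.22 ± 0.20 (SE, 9.33-fold, adjusted p = 0.00242 by limma). OtP001-H02 stood at 3.27, 3.55, 3.35, 3.38 and 3.78 in legs and at 0.61, 0.73, -0.86, -0.59 and -0.01 in head horn, a difference of -3.49 ± 0.27 (SE, 11.2-fold, adjusted p = 0.00404). In neither clone did the tissues overlap. OtP005-A01 reached 3.69 ± 0.32 (SD, n = 5) in legs and 0.16 ± 1.504 in head horn, where B was at 2.61 and no other letter exceeded 0.23.

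In 3 further clones higher in legs, head horn came close to legs on letter C. OtP001-F11 had legs ratios of 2.93, 3.75, 3.13, 3.44 and 3.30, and head horn ratios of -0.30, 1.47, 2.19, 0.09 and 0.14. OtP009-F09 and OtP007-A10 followed the same course, with head horn lowest on A and highest on C at 2.19 and 2.54. Over the 15 arrays OtP001-F11 correlated with OtP009-F09 at 0.99 and with OtP007-A10 at 0.97. This agreement describes 3 clones that share arrays and may share a transcript, which the files do not tell. Head horn minus legs was -2.59 ± 0.38 in OtP001-F11, -2.25 ± 0.39 in OtP009-F09 and -2.26 ± 0.44 in OtP007-A10 (SE). On C the differences were -0.94, -0.52 and -0.39. OtP014-C10 completed the 10 lowest clones, at 1.79 ± 0.68 in legs and -0.39 ± 1.14 in head horn (SD, n = 5).

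Of these 10 clones, OtP013-D04, OtL014-A09 and OtP001-H02 stayed called by limma whichever letter was left out. OtP014-A08 was not called without A, C, D or E (adjusted p = 0.0662 to 0.0775), and its difference was -3.45 without C and -4.93 without B. OtP013-D01 was not called without B, C, D or E (0.0502 to 0.0858), and its difference was -3.21 without C and -4.74 without A. OtP005-A01 was not called without A, C or E (0.0506 to 0.0589). OtP001-F11 missed the threshold without A, B or E (0.0506 to 0.0575), OtP007-A10 without A, B, D or E (0.0737 to 0.0823) and OtP009-F09 without A, B, D or E (0.06248 to 0.0705). OtP014-C10 missed it without each of the letters (0.0653 to 0.107). Unpaired, OtP014-A08, OtP013-D01 and OtP014-C10 were not called either, with adjusted p = 0.0719, 0.0542 and 0.0719 by limma.

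**Figure D2:**
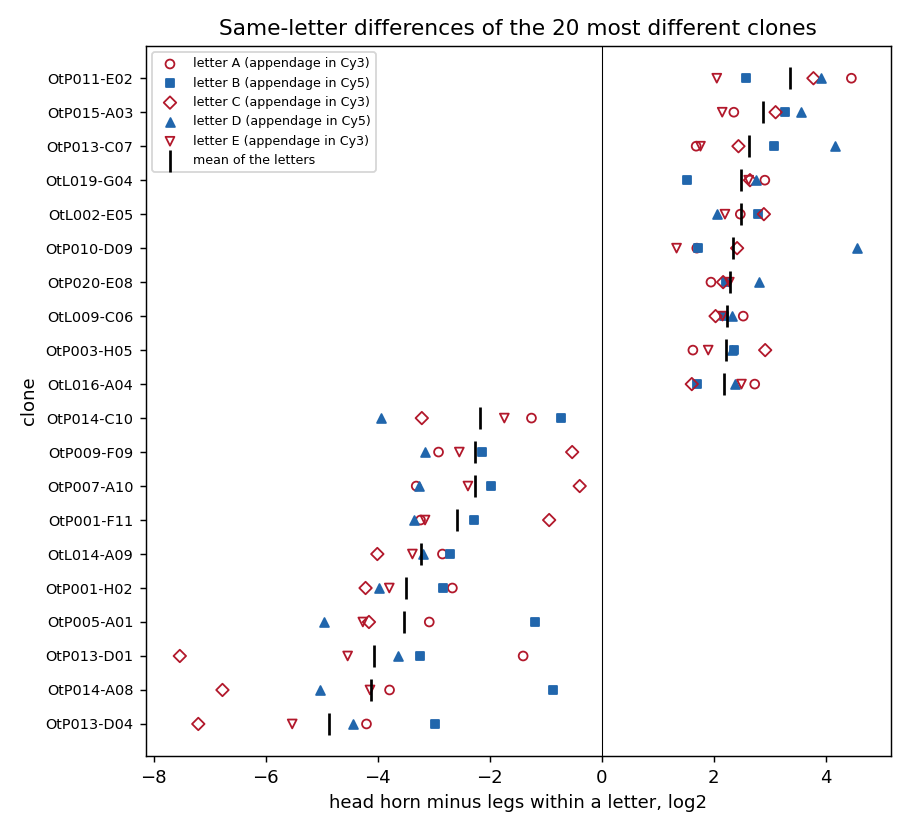
Head horn minus legs within each letter, on the log2 scale, for the 10 clones with the highest and the 10 with the lowest mean among called clones of 1 sign in all 5 letters; open red symbols are letters with the appendage in Cy3, filled blue symbols those in Cy5, and black bars the means. The lowest clones spread most between letters, with -7.53 on C and -1.40 on A in OtP013-D01, while OtL009-C06 stayed between 2.04 and 2.53.

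Of the 11 clones called at least 4-fold higher in head horn, 10 were above abdomen in head horn, against 17.0% of the clones tested. Here too the choice of the clones favours this outcome. Legs were not called against abdomen in 5 of the 11, above it in 4 and below it in 2. Over all clones tested these shares were 61.0%, 21.5% and 17.5%. Thoracic horn lay nearer to head horn in 6 of the 11, and the other 5 were nearer to legs in thoracic horn.

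OtP011-E02 had the largest difference in favour of head horn. Its head horn ratios were 3.25, 3.89, 4.34, 4.19 and 2.52, and its legs ratios -1.21, 1.31, 0.55, 0.27 and 0.46. Head horn was higher by 3.36 ± 0.37 (SE, 10.3-fold, adjusted p = 0.00855 by limma), with no overlap between the tissues. OtP015-A03 stood at 3.23, 3.97, 3.29, 4.28 and 2.82 in head horn and at 0.87, 0.69, 0.18, 0.73 and 0.66 in legs, a difference of 2.89 ± 0.23 (SE, 7.42-fold). OtL019-G04 reached 3.20 ± 0.44 in head horn and 0.70 ± 0.75 in legs, and OtL002-E05 3.43 ± 0.71 and 0.95 ± 0.68 (SD, n = 5). Thoracic horn was close to head horn in these 4 clones, at 3.82, 3.21, 2.87 and 3.90. By Pearson's correlation over the 15 arrays, OtL019-G04 (0.95), OtL002-E05 (0.94) and OtP015-A03 (0.92) were also the clones most like OtP011-E02. The clones most like OtP013-D04, at the other end, were OtP014-A08 and OtL014-A09 (0.96 each) and OtP001-H02 (0.93). Shared arrays and large tissue steps raise such correlations.

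OtL009-C06 and OtL016-A04 were high in head horn and near abdomen in both other tissues. OtL009-C06 had head horn ratios of 2.95, 4.07, 1.32, 2.64 and 2.60, and in legs 0.42, 1.89, -0.71, 0.31 and 0.44. The thoracic horn arrays read 0.68, 1.59, -0.94, 0.35 and 0.29. All 3 tissues were highest on B and lowest on C. The head horn arrays overlapped the legs arrays, but within a letter the difference was always between 2.04 and 2.53, with a mean of 2.25 ± 0.11 (SE, 4.75-fold, adjusted p = 0.00242 by limma). OtL016-A04 behaved alike, at 2.94, 3.48, 0.50, 2.90 and 2.85 in head horn and at 0.21, 1.77, -1.11, 0.51 and 0.35 in legs. The clones correlated at 0.98 over the 15 arrays and may share a transcript. Their calls depended on the pairing, with adjusted p = 0.0703 and 0.107 in the unpaired limma fit.

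OtP020-E08 was the highest of the 10 in head horn. It had ratios of 3.65, 4.27, 3.67, 4.44 and 3.36 there, of 2.59 ± 0.40 (SD, n = 5) in thoracic horn and from 1.08 to 2.05 in legs. The difference was 2.29 ± 0.14 (SE, 4.87-fold, adjusted p = 0.00242 by limma), and thoracic horn lay between. OtP013-C07 and OtP010-D09, with differences of 2.63 ± 0.38 and 2.35 ± 0.47 (SE), differed most on letter D. On D head horn reached 4.97 and 6.32, against at most 2.51 and 2.56 on the other letters. OtP013-C07 was not called without B or C (adjusted p = 0.0577 and 0.0515 by limma), and OtP010-D09 not without A, B, C or E (0.0637 to 0.0864). OtP003-H05 differed from the rest in that legs lay below abdomen, at -1.85 ± 1.002, and head horn near it, at 0.38 ± 0.77 (SD, n = 5). Its difference was 2.23 ± 0.20 (SE). Unpaired, OtP010-D09 and OtP003-H05 were not called (adjusted p = 0.153 and 0.0587 by limma).

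By unadjusted p, the 3 clones with the smallest values in favour of head horn were OtL009-C06, OtP020-E08 and OtL010-E04. Together with OtL002-E05 they shared an adjusted p of 0.00242 by limma. OtL010-E04 lay below abdomen in both tissues, at -1.46, -0.22, -0.91, -0.84 and -1.32 in head horn and at -2.95, -1.996, -2.91, -2.62 and -3.02 in legs. The difference was 1.75 ± 0.11 (SE, 3.36-fold). In favour of legs the smallest values belonged to OtL014-A09, OtP004-A10 and OtP001-H02.

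Called clones were then sorted by the side of abdomen on which each tissue lay, using limma on the 10 arrays with a term for the dye layout. The same arrays made the calls. Clones higher in legs therefore tend by selection to lie above abdomen in legs or below it in head horn. The reverse holds for clones higher in head horn. The shares of all clones tested carry no such selection, so they are no fair baseline. The most common class among clones higher in legs was above abdomen in legs and not called in head horn. It held 138 of the 268 (51.5%), against 10.6% of the clones tested. Another 52 (19.4%, against 5.38% of the clones tested) were below abdomen in head horn and not called in legs, and 43 (16.04%, against 49.5%) were called in neither tissue. Both tissues were above abdomen in 15 (5.597%, against 10.7%) and below it in 13 (4.85%, against 13.0%). Clones higher in head horn were divided more evenly. Of the 275, 68 (24.7%, against 10.7% of the clones tested) were above abdomen in both tissues. A further 67 (24.4%, against 6.07%) were above it in head horn and not called in legs. Both tissues were below it in 59 (21.5%, against 13.0%). Legs were below it and head horn not called in 40 (14.5%, against 4.32%), and 34 (12.4%, against 49.5%) were called in neither. Among all clones tested, 17% were above and 18.6% below abdomen in head horn, and 21.5% above and 17.5% below in legs. After each array's median was subtracted, the 138 became 127, and without letter D, the least complete, they became 104. A clone that misses the threshold against abdomen may still differ from it.

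Among the called clones 14 lay on opposite sides of abdomen, 7 above it in head horn and below it in legs, and 7 the other way. OtL017-A04 differed most among them. Its head horn ratios were 1.28, 1.39, 1.58, 1.45 and 2.06 and its legs ratios -0.39, -0.63, -0.79, -1.04 and -0.19, a difference of 2.16 ± 0.15 (SE, 4.47-fold, adjusted p = 0.00292 by limma). Thoracic horn was close to abdomen, at 0.15 ± 0.22 (SD, n = 5). In OtL008-B08 the head horn mean was 0.83 ± 0.48 and the legs mean -0.73 ± 0.25, with 0.17 ± 0.45 for thoracic horn. OtL009-G05 stood at 0.74 ± 0.46 in head horn and -0.78 ± 0.32 in legs. Its thoracic horn values split by dye layout, at 1.11, 1.20 and 1.09 on A, C and E and at 0.03 on B and on D. Its head horn and legs ratios were lower on B and D as well. In the opposite direction, OtP003-H08 had legs ratios of 1.66, 0.62, 1.28, 0.07 and 0.98 and head horn ratios of -0.30, -1.72, -1.02, -1.16 and -1.52, so that legs were 4.19-fold higher. OtL015-D03 stood at 1.07 ± 0.35 in legs and -0.77 ± 0.25 in head horn, and OtP004-A10 at 0.73 ± 0.30 and -0.81 ± 0.43 (SD, n = 5). In these 3 clones the mean of thoracic horn was below abdomen as well, at -0.68, -0.29 and -0.69.

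**Figure D3:**
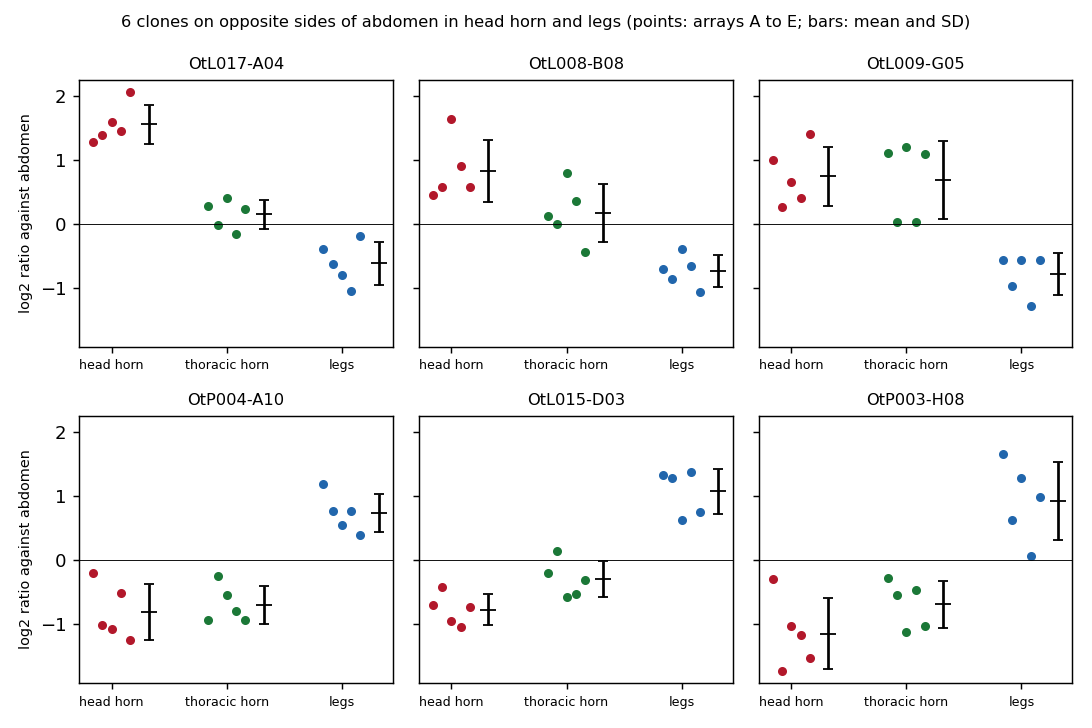
Log2 ratios against abdomen of the 6 clones with the largest difference among those on opposite sides of abdomen; points are arrays A to E from left to right, and bars give the mean and SD (n = 5). Upper row: head horn above and legs below 0. Lower row: legs above 0, with head horn and the mean of thoracic horn below.

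A band of clones was raised in both tissues and further in head horn. It held 42 of the 275 clones higher in head horn, those with a mean legs ratio of at least 1 (2-fold above abdomen). The band was picked after its values were seen and is described only. It accounted for 33 of the 115 clones at least 2-fold higher in head horn. Of the 42, 34 had the prefix OtL, on 27 plates for both prefixes together. The same prefix was carried by 1837 of the 3589 clones tested and by 174 of the 275 clones higher in head horn. Their differences ran from 0.44 in OtL001-A03 to 2.29 in OtP020-E08, with a median of 1.22.

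The band's median ratio moved from letter to letter in each tissue. On letters A to E the median over its clones was 1.91, 3.75, 3.66, 2.59 and 1.92 in head horn. In legs it was 0.72, 3.05, 2.10, 1.14 and 0.997. In thoracic horn it was 1.60, 2.74, 2.77, 1.49 and 1.56. B and C were the highest letters in every tissue. D lay between them and the others in head horn and legs, and was the lowest letter in thoracic horn. The median same-letter difference was steadier, at 1.03, 0.88, 1.31, 1.48 and 0.97. The calls favour this, because they need same-letter differences of 1 sign and small spread. Over the 15 arrays the clones of the band correlated with each other at a median of 0.75 (861 pairs, from -0.37 to 0.99). Shared arrays take part in this value. So does the choice of the clones, all of which were higher in head horn than in legs. Thoracic horn lay nearer to legs than to head horn in 29 of the 42, against 47 of the other 233 clones higher in head horn.

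**Figure D4:**
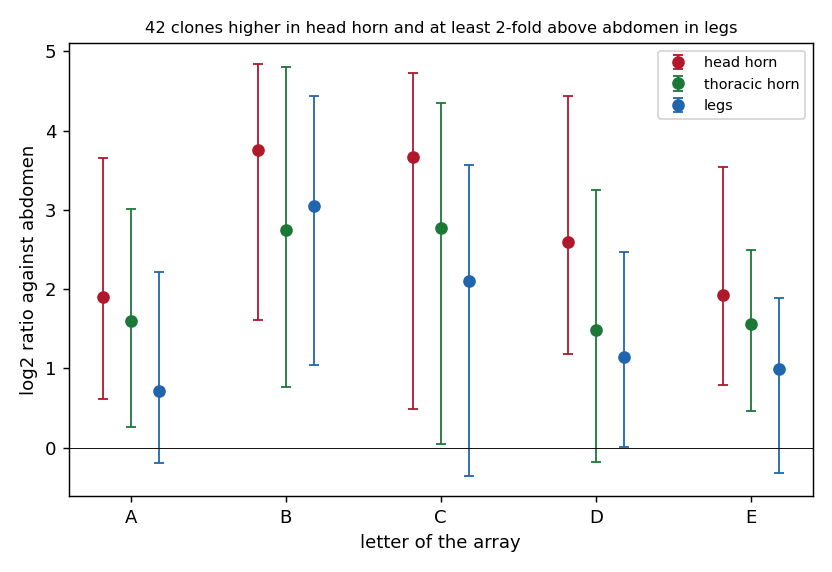
Median log2 ratio against abdomen of the 42 clones higher in head horn and at least 2-fold above abdomen in legs, by letter and tissue; whiskers run from the lowest to the highest clone. Head horn lies above legs at every letter, which the calls nearly require, and all 3 tissues are higher on B and C than on A and E.

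The thoracic horn arrays were not used by the comparison. Its mean was nearer to head horn than to legs in 199 of 275 clones higher in head horn (72.4%) and in 232 of 267 clones higher in legs (86.9%). Among clones not called the share was 67.6% (2031 of 3006). The labels do not say whether the 3 arrays of a letter share animals. Over the 3182 clones with a value on all arrays, head horn and legs of a letter differed by a root mean square of 0.72 ± 0.06 (SD, n = 5), and the head and thoracic horns by 0.62 ± 0.07. The first exceeded the second in 5 of 5 letters, with p = 0.062 in a two-sided exact sign-flip permutation test, the smallest that 5 letters allow. Both distances use the head horn arrays. Thoracic horn and legs of a letter differed by 0.74 ± 0.09 (SD, n = 5).

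Many clones were alike in head horn and legs. The 95% interval of the difference lay within -0.5 and 0.5 (1.41-fold either way) for 930 clones, 25.9% of those tested. Of these 930, 287 were called against abdomen on the same side in both tissues, 146 above it and 141 below. Among all 3589 clones tested, 384 (10.7%) were above it in both tissues and 466 (13.0%) below it in both. OtL006-H03 was the most extreme. Its ratios were -3.80, -2.04, -4.79, -3.51 and -3.23 in head horn and -3.53, -2.27, -4.85, -3.43 and -3.27 in legs, so the tissues tracked each other by letter. Their difference had an interval from -0.27 to 0.26. OtL008-H02 and OtP013-E08 were low in both, at -2.36 and -2.25 in head horn and -2.40 and -2.31 in legs. The highest such clones were OtL013-A03, OtL020-C06 and OtL009-A08, with means from 1.55 to 1.56 in head horn and from 1.52 to 1.63 in legs. OtL009-A08 had the narrowest interval of these 3, from -0.21 to 0.29. OtL013-A03 varied widely between letters, from -0.31 on C to 3.36 on B in head horn and from 0.24 to 3.15 in legs.

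The spread between letters set which differences could be called. Of 269 clones with a mean difference of at least 2-fold, 96 were not called, and their median SE was 0.62 against 0.21 for the 173 that were. Same-letter differences of all clones had a median SD of 0.34, below the median SD of head horn (0.41) and near that of legs (0.35).

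**Figure D5:**
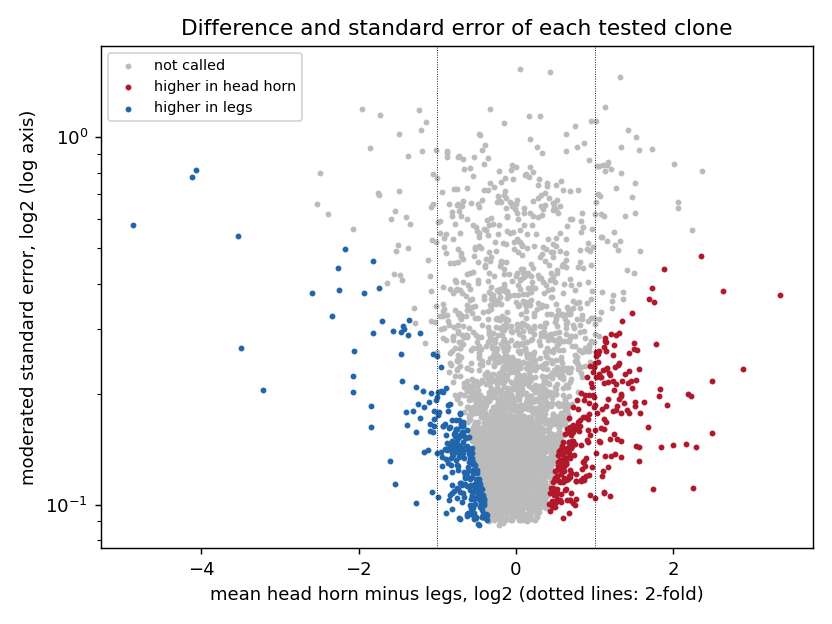
Mean head horn minus legs (horizontal axis, log2) against its moderated standard error (vertical axis, log scale) for the 3589 clones tested; dotted lines mark 2-fold. Called clones lie outside a funnel, and the 96 uncalled clones beyond the dotted lines have larger errors, with a median of 0.62.

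The clone sets shared the calls unequally. Of 1837 OtL clones tested 317 were called (17.3%), 174 higher in head horn and 143 higher in legs. Of 1752 OtP clones 226 were called (12.9%), 101 higher in head horn and 125 higher in legs. At 4-fold or more the order was reversed. There 13 of the 14 clones higher in legs had the prefix OtP, OtL014-A09 being the exception, and 19 of all 25 such clones did. The sources used here do not say how the sets differ, and clones of one transcript may recur within a set.

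The difference between head horn and legs did not detectably depend on the dye layout. Its test, letters B and D against A, C and E, called 0 clones in limma, with 146 clones (4.07%) at an unadjusted p under 0.05 and a smallest adjusted p of 0.217. The mean over A, C and E and the mean over B and D had the same sign in all 543 called clones, a condition close to what the calls require.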

How the data were processed

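The deposited table holds 1 value per clone and array, read as a log2 ratio of both channels that the authors had normalized with limma, per the submitters' processing notes. Not given in the sources used here are the log base, the background correction, the normalization method and the filter behind the 1799 empty cells. Values were used as deposited, with no further normalization.

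Head horn and legs arrays were joined by the letter in their titles, and the same-letter differences were tested against 0 with limma 3.58.1 (lmFit and eBayes) in R 4.3.3, over clones with at least 4 letters. Benjamini-Hochberg adjustment ran over all 3589 clones, and SE are moderated. They measure the spread between letters, that is between pools of pupae together with amplification and labelling. Labels tie animals together within an array only. The pairing of letters comes from the data: after subtraction of each tissue's mean, head horn and legs of a letter correlated over clones at 0.41 to 0.63 (5 letters). Different letters of the same dye layout correlated at 0.14 to 0.43 (8 pairs). These ranges overlap, and a dye bias shared by the arrays can raise both. With the mean of each tissue and layout subtracted, same-letter values were 0.32 to 0.41. Subtracting means of so few arrays pushes other letters of a layout below 0, so this range has no fair baseline.

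Named clones were the 10 highest and 10 lowest called differences of 1 sign in all 5 letters, the 3 smallest adjusted p per direction, the 6 largest on opposite sides of abdomen, 3 high and 3 low clones alike in both tissues, and the 3 most like each extreme. The comparison, these rules and the clones were chosen with earlier results of these data known. Gene lists planned for named genes could not be applied. Alternatives varied pairing, centring, scaling, filters, moderation, letters and dye layout. Figures used matplotlib 3.10.9.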

Additional observations from a re-analysis of the deposited data

Results flagged for a closer look

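Among 38 sets of 5 values tested for a value apart from the rest, 4 had one by Dixon's limit for 5 values (0.71), where chance gives about 1 in 20. Letter D had the most empty values in head horn (295, against 42 to 106 on the other letters) and in legs (329, against 32 to 96). Among legs arrays the median log2 ratio was 0.15 on D and 0.01 to 0.05 on the others. The difference between head horn and legs of OtL019-G04 was 1.53 on B and between 2.63 and 2.92 on the other letters, and it was called without B as well as with it.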

How the results depend on the processing

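Calls shared with the 543 kept their direction under each alternative, and none of the 27 named called clones changed sign. The 6 clones named as alike had means near 0 and changed sign under some alternatives, none of which called them. With the letter as a random replicate block on 10 arrays limma called 740 clones, 493 of them among the 543, and on all 15 arrays with the letter as a fixed replicate block 826, of which 434 were higher in legs and 504 were among the 543. Unpaired, with no replicate block, it called 60 clones (32 higher in head horn, 28 in legs, 50 at least 2-fold). With a dye layout term it called 110 (58, 52 and 68). Leaving out 1 letter gave 85 to 169 clones, 53 to 97 higher in head horn, 29 to 80 higher in legs and 73 to 110 at least 2-fold. Each such fit has fewer letters and took clones with a difference in at least 3 of them. Fits within a dye layout took clones with a difference in at least 2 letters. Letters A, C and E alone, and B and D alone, gave 0 in every count, with 766 and 533 clones at an unadjusted p under 0.05. Centring arrays on their medians gave 512 calls and raised the share higher in head horn from 50.6% to 59.2%. Scaling them too gave 419, with 178 higher in legs. The cause of these shifts was not tested. Clones with all 5 letters gave 666 calls, at least 3 letters 474, and robust moderation 535. The root mean square difference was 0.72, and 0.86 over all clones with values on both arrays of a letter, a larger set. Of 432 values of the 27 named called clones under the alternatives, 333 stayed called and 99 missed the threshold, 54 of them within a dye layout.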

Other observations

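The largest mean differences that were not called are named after their values were seen. OtL012-E02 had a mean head horn minus legs of -2.53 in 4 letters, from -0.74 on E to -4.27 on A (SE 0.66, adjusted p = 0.0633 by limma). OtL016-G03 had a mean of -2.49 in 5 letters, with -6.15 on D and -0.66 to -2.90 on the others (adjusted p = 0.085). In favour of head horn, OtL013-C06 differed by a mean of 2.36, from -0.40 on E to 5.24 on B (adjusted p = 0.0973). OtP002-G06 had a mean of 2.23 in 4 letters, all positive (adjusted p = 0.0581). Of the 96 uncalled clones at least 2-fold apart, 33 had the same sign in each of their letters.

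A single clone, OtP002-E12, had a value on all 5 head horn arrays and on at most 1 legs array, and no clone had the reverse. Its head horn ratios were 2.88, 3.48 and 4.15 on A, C and E and -2.97 and -5.38 on B and D, so the sign followed the dye layout. Thoracic horn showed the same split, with 4.28 and 3.66 on C and E against -2.33 and -5.86 on B and D. The only legs value was 2.17, on A. Plates differed in how many of their clones were called, from 3 of 63 tested (4.76%) on OtP002, the plate of that clone, to 23 of 96 (24%) on OtL015.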
